A study of Mus musculus with 6 samples.

Results

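The insulin-like growth factor (IGF) axis was examined in sorted skin cells of newborn mice through 9 genes: the ligand gene Igf1, the receptor genes Igf1r and Insr, and the binding protein genes Igfbp2, Igfbp3, Igfbp4, Igfbp5, Igfbp6 and Igfbp7. They were taken by gene symbol from count tables of 24453 gene rows, and all 9 had a row. RNA sequencing had been done on 6 libraries of cells from postnatal day 0 skin, 3 labelled control and 3 labelled Ring1a/b 2KO, whose genotype is given as Ring1a-/- Ring1b-/-. Ring1 and Rnf2, the genes of RING1A and RING1B, encode the ubiquitin ligases of Polycomb repressive complex 1, which keeps developmental genes silent through chromatin. The labels call the cells hair follicle cells, whereas the attached sorting protocol describes interfollicular epidermis gated as positive for EpCAM and Sca1 with high α6-integrin. They give neither a strain, a Cre driver nor the alleles of the control animals, and they do not say whether each replicate was a separate animal. The p-values thus measure the spread between these libraries, which may be technical in part.

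IGF-I and IGF-II are secreted growth factors that act through the IGF-I receptor, a tyrosine kinase closely related to the insulin receptor. Most extracellular IGF is held by IGF binding proteins, which keep it from the receptor or deliver it near the cell, and which proteases can cleave. In skin, IGF-I comes largely from dermal fibroblasts and the dermal papilla and acts on the receptors of keratinocytes, which promote growth of epidermis and hair follicle.

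Total counts per library were between 24.8 and 30.8 M (M, mega), so that 1 count was worth 0.0323 to 0.0392 CPM (counts per megacount, scaled between libraries by edgeR's TMM method). Groups were compared with edgeR's quasi-likelihood test and Benjamini-Hochberg adjustment over all 14972 genes with enough counts, with a threshold of 0.05 for the adjusted p. The targeted genes did not follow the labels. Ring1 measured 19.5, 22.4 and 3.37 CPM in the control-labelled libraries and 1.84, 7.34 and 14.1 CPM in the 2KO-labelled ones (log2 change -0.96 with SE 0.76, edgeR adjusted p = 0.537). Rnf2 was at 47.1 to 79.5 and 66.4 to 89.2 CPM. Since the deleted part of each gene is not named in the labels, whole-gene counts cannot check the genotype, and each direction given here compares libraries by their label. High Xist, an RNA made from an inactive X chromosome, marked control replicate 3 and 2KO replicates 1 and 2 (4550 to 5360 CPM, against 2.48 to 10.4 in the other 3), so that this difference crossed the labels. By Xist, the libraries of each group did not all come from the same animals, while those with like Xist may have.

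Genes of 3 IGF binding proteins rose in the 2KO-labelled libraries. Igfbp6 rose 22.7-fold, Igfbp2 7.36-fold and Igfbp4 3.38-fold. Thus 3 of the 9 IGF axis genes were higher and 0 lower (1, Igfbp5, at an unadjusted p under 0.05, and 0 with DESeq2 or limma-voom), where 6.61% of all tested genes were higher and 2.42% lower. All 9 genes had been tested, and their median log2 fold change was 0.62, beside -0.02 over all tested genes. The remaining 6 genes, namely the ligand, both receptors and 3 binding proteins, did not pass the threshold. Between the highest control-labelled library and the lowest 2KO-labelled one there was a gap for 4 genes, Igfbp3 being the fourth, where 15.2% of all tested genes lay apart in this direction. None lay apart the other way, as 13.1% of all tested genes did. In bulk RNA, a change in the share of cells that express a gene and a change of its RNA per cell cannot be told apart.

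**Figure D1:**
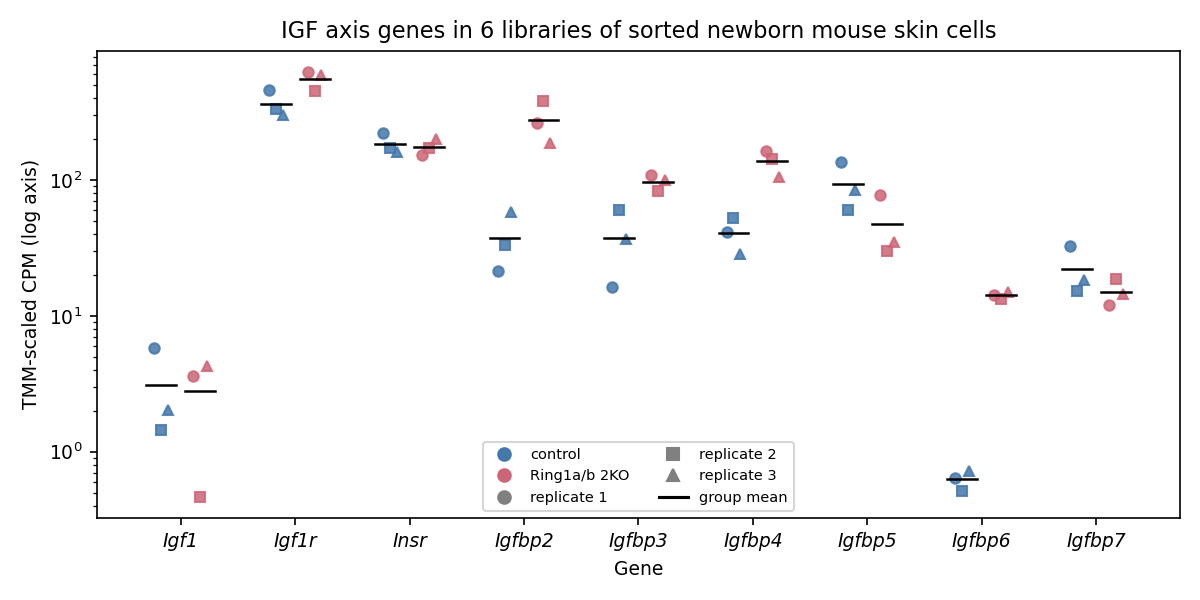
TMM-scaled CPM (log axis) of the 9 IGF axis genes in each library, with control libraries in blue, Ring1a/b 2KO libraries in red, a marker shape for each replicate number and a bar at the group mean. Igfbp2, Igfbp3, Igfbp4 and Igfbp6 have every 2KO library above every control library, and Igfbp6 shows the widest gap, 0.517 to 0.719 against 13.4 to 15.1 CPM.

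Igf1, the gene of the ligand IGF-I (chromosome 10, 87858265 to 87937042, plus strand; GENCODE vM21 on GRCm38, the assembly named mm10), had the fewest reads of the 9 genes. Its level was 5.78, 1.45 and 2.03 CPM in the control-labelled libraries and 3.61, 0.467 and 4.28 CPM in the 2KO-labelled ones, from 14 to 163 counts a library. Both groups spanned nearly the same range. The log2 fold change was -0.15 with a 95% interval from -1.99 to 1.69 (edgeR adjusted p = 0.952), wide enough to hold a change of more than 1 log2 unit either way. The sign turned without control replicate 1 (0.69) or 2KO replicate 2 (0.37), on omitting both replicate-1 libraries (0.46) and with Xist as a covariate (0.23). No direction can therefore be read for Igf1.

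Igf1r, which encodes the IGF-I receptor (chromosome 7, 67952827 to 68233668, plus strand), had the most reads of the 9 genes. It measured 457, 332 and 299 CPM in the control-labelled libraries and 625, 454 and 598 CPM in the 2KO-labelled ones. The groups touched, with control replicate 1 just above 2KO replicate 2. The log2 fold change was 0.62 (SE 0.21, 95% interval 0.15 to 1.09) and the edgeR adjusted p 0.107, so the gene missed the threshold. It passed without control replicate 1 (log2 fold change 0.84, adjusted p = 0.0386). Insr, the gene of the insulin receptor (chromosome 8, 3122061 to 3279617, minus strand), measured 222, 173 and 160 CPM against 154, 172 and 200 CPM. Here the groups lay over each other, and the interval of the log2 fold change, -0.49 to 0.34, was the narrowest of the 9 genes (estimate -0.08, edgeR adjusted p = 0.869). Its estimate turned to between 0.02 and 0.18 without control replicate 1, without 2KO replicate 1, without both, and with Xist as a covariate.

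The 3 binding protein genes that rose lie apart in the genome, Igfbp2 and Igfbp4 on chromosomes 1 and 11 and Igfbp6 on chromosome 15. Their promoters are shown because these genes moved together while differing in base composition. Given are the 250 bases before the RefSeq start site (GRCm38.p6, plus strand for all 3), 5′ to 3′, with each CpG dinucleotide, the site of DNA methylation and a feature of many Polycomb-bound promoters, in capitals.
Igfbp2, chr1:72824230-72824479: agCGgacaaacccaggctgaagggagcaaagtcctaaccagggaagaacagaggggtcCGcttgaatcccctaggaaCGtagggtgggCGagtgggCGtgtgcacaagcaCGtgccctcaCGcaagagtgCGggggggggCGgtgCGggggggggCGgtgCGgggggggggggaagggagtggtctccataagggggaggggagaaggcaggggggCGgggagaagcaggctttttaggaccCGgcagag
Igfbp4, chr11:99040994-99041243: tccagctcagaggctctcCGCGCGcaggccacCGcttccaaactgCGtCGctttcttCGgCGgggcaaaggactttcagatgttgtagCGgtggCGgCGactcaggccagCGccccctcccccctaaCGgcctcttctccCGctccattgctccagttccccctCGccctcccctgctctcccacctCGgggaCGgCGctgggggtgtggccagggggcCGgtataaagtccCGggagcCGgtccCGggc
Igfbp6, chr15:102143936-102144185: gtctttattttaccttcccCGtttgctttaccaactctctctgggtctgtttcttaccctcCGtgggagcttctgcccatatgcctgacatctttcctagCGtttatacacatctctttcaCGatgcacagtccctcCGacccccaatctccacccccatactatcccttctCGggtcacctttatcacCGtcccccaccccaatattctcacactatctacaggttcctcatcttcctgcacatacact

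Igfbp4 had 22 CpG in this window and Igfbp2 14, while Igfbp6 had 7, near the median of 6 over 32851 RefSeq windows of the same length. G and C made up 69.2% and 67.2% of the first pair and 49.6% of the third (median of all windows 52.4%). Relative to the number expected from the C and G of each window, CpG stood at 0.748 in Igfbp4, 0.608 in Igfbp2 and 0.651 in Igfbp6. The median of all windows was 0.373, so by this ratio Igfbp6 was not below Igfbp2. RefSeq lists 2 starts for Igfbp2, and the other window held 11 CpG. Among the binding protein genes that did not pass, Igfbp3 had 32 CpG, Igfbp7 26 and Igfbp5 10, so CpG number did not order the 6 genes by their response. The receptor gene Igf1r had 42, more than all but 0.712% of windows, and Igf1 had 5. Insr was not matched in the promoter table. The letters TATAAA, the core of a TATA box, stood 28 bases before the start of Igfbp4. Over both strands they also occurred in the window of Igfbp6, on the strand opposite the gene, and in 12.4% of all windows. The RefSeq start of Igfbp6 lies 176 bases before the start of the gene in GENCODE, so its window would move with the annotation.

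Igfbp6 (chromosome 15, 102144362 to 102149511, plus strand) encodes a binding protein that prefers IGF-II to IGF-I. Its level was 0.639, 0.517 and 0.719 CPM in the control-labelled libraries, from 16 to 22 counts, and 14.2, 13.4 and 15.1 CPM in the 2KO-labelled ones, from 363 to 402 counts. The gene was almost silent in one group and evenly expressed in the other. The log2 fold change was 4.50 (SE 0.37, 95% interval 3.68 to 5.33, edgeR adjusted p = 0.000281). Of all tested genes, 1.33% had a higher fold change.

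Igfbp2 (chromosome 1, 72824503 to 72852474, plus strand) encodes a binding protein that is abundant in fetal tissues. It measured 21.4, 33.4 and 58.1 CPM in the control-labelled libraries and 263, 383 and 186 CPM in the 2KO-labelled ones. Levels were spread widely within each group, and still the lowest 2KO-labelled library (186) lay far above the highest control-labelled one (58.1). The log2 fold change was 2.88 (SE 0.39, 95% interval 2.01 to 3.75, edgeR adjusted p = 0.00241). On omitting both replicate-3 libraries, which are the highest control and the lowest 2KO library for this gene, it was 3.56.

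Igfbp4 (chromosome 11, 99041244 to 99054392, plus strand), whose product is a well-known substrate of the protease pappalysin-1, was at 41.6, 52.9 and 28.5 CPM in the control-labelled libraries. The 2KO-labelled libraries had 165, 144 and 106 CPM. The lowest of these (106) lay well above the highest of the first group (52.9). The log2 fold change was 1.76 (SE 0.27, 95% interval 1.16 to 2.35, edgeR adjusted p = 0.00389).

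Igfbp3 (chromosome 11, 7206086 to 7213923, minus strand), the main carrier of IGF in blood and in skin a product of keratinocytes too, measured 16.3, 60.2 and 36.7 CPM in the control-labelled libraries and 109, 82.6 and 99.8 CPM in the 2KO-labelled ones. The groups lay apart, but the control libraries were widely spread. With a log2 fold change of 1.36 (SE 0.39, 95% interval 0.48 to 2.24) and an edgeR adjusted p of 0.0631 the gene missed the threshold. It passed without control replicate 2, the highest of its group (log2 fold change 1.87, adjusted p = 0.0155), with DESeq2 (adjusted p = 0.00448), with limma-voom (0.0264) and with no filter on low counts (0.0180).

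Igfbp5 (chromosome 1, 72857932 to 72874884, minus strand), a gene known from the outer layers of the follicle, measured 137, 60.2 and 84.1 CPM in the control-labelled libraries and 77.9, 29.8 and 35.2 CPM in the 2KO-labelled ones. Only 2KO replicate 1 reached into the control range. The log2 fold change was -0.98 (SE 0.40, 95% interval -1.88 to -0.07, edgeR adjusted p = 0.192). It passed as lower without 2KO replicate 1 (-1.52, adjusted p = 0.0340) and on omitting both replicate-1 libraries (-1.13, adjusted p = 0.0358). Igfbp7 (chromosome 5, 77349240 to 77408041, minus strand) encodes a related secreted protein that binds IGF only weakly and is known from vessels. Its level was 32.7, 15.2 and 18.4 CPM against 12.1, 18.6 and 14.4 CPM, with overlapping groups and a log2 fold change of -0.56 (95% interval -1.30 to 0.19, edgeR adjusted p = 0.388). Of its exons, 85 bases overlap Polr2b on the other strand, and with no strand setting stated, reads of the pair cannot be told apart there.

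**Figure D2:**
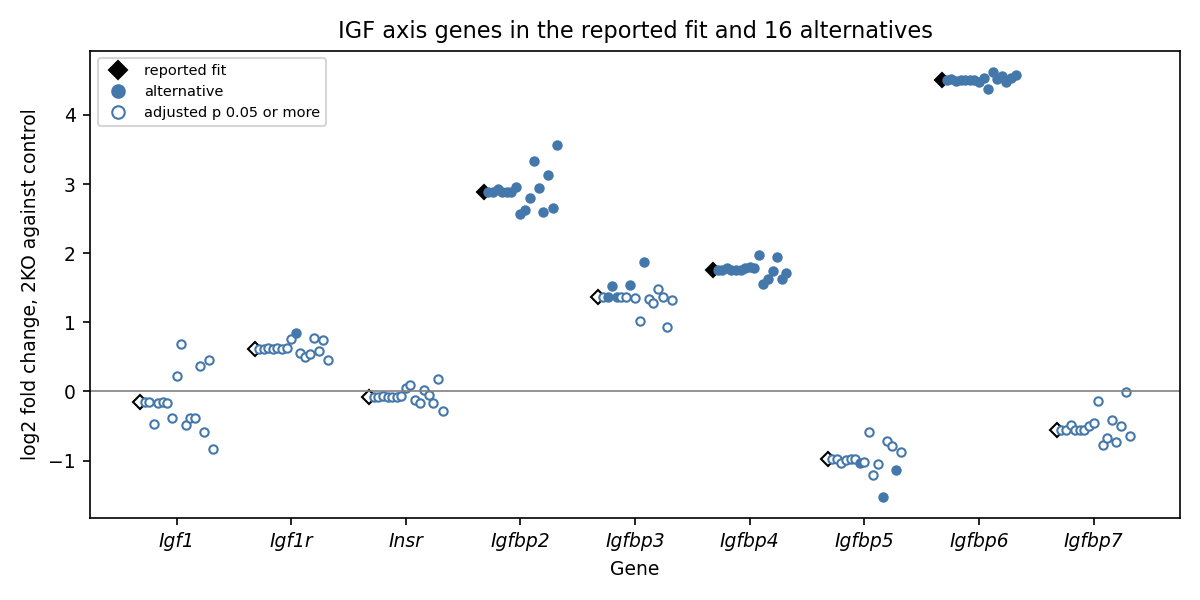
Log2 fold change (2KO against control, vertical axis) of each IGF axis gene in the fit reported in the text (black diamonds) and under 16 alternatives (blue circles, which include leaving out single libraries), filled where the adjusted p was under 0.05. Igfbp2, Igfbp4 and Igfbp6 are filled throughout, with ranges of 2.56 to 3.56, 1.55 to 1.98 and 4.38 to 4.62, while Igf1 and Insr scatter about 0.

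The calls of Igfbp2, Igfbp4 and Igfbp6 held in all 16 alternatives, with adjusted p of at most 0.0104, 0.0263 and 0.0131. In each of these fits the higher IGF axis genes numbered 3 or 4 and included these 3. The share of all tested genes that were higher ranged from 2.04% to 9.46% in the same fits.

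Igfbp2 and Igfbp5 are neighbours that point toward each other, 5.46 kb apart on chromosome 1. Their fold changes had opposite signs, although only that of Igfbp2 passed. Per kilobase of exon, Igfbp2 RNA was 0.509, 1.81 and 2.25 times that of Igfbp5 in the control-labelled libraries and 11.0, 41.8 and 17.2 times in the 2KO-labelled ones. This within-library ratio needs no scaling between libraries. That it did not overlap between the groups follows largely from Igfbp2, whose own levels already lay apart, and is no separate support. The next gene on the other side of Igfbp2, the ribosomal protein gene Rpl37a, was at 3.26 ± 1.31 and 3.48 ± 1.21 CPM (SD, n = 3 libraries per group; edgeR adjusted p = 0.955). Igfbp4 lies between Top2a, the gene of a mitotic topoisomerase (408 ± 204 and 208 ± 94.4 CPM, adjusted p = 0.167), and Tns4, the gene of a focal adhesion protein, which rose from 267 ± 15.6 to 492 ± 95.5 CPM (log2 change 0.89 with SE 0.18, edgeR adjusted p = 0.0163). Igfbp6 lies between Spryd3 (10.5 ± 3.60 and 12.3 ± 3.48 CPM, adjusted p = 0.791) and Soat2, 1.01 kb away, a gene of cholesterol esterification at 0.499 ± 0.614 and 1.00 ± 0.781 CPM (adjusted p = 0.683). Of the 5 neighbours of the risen genes outside the family, 1 thus passed the threshold, where 9.02% of all tested genes passed in either direction. So few genes do not show a difference from that share.

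Levels of different genes were compared per kilobase of merged exons. In the libraries labelled control the order of the mean levels (CPM per kilobase) was Igf1r at 21.6 ± 4.99, Igfbp2 at 20.4 ± 10.1, Igfbp7 at 18.3 ± 7.70, Igfbp5 at 15.6 ± 6.50, Insr at 13.5 ± 2.37, Igfbp3 at 12.1 ± 7.03 and Igfbp4 at 9.28 ± 2.77, and each of these overlapped the next. Igfbp6 (0.562 ± 0.0918) lay clear below them and overlapped Igf1 (0.312 ± 0.237). In the libraries labelled 2KO, Igfbp2 (150 ± 53.8) stood first and clear of Igf1r (33.3 ± 5.48), which overlapped Igfbp4 (31.3 ± 6.81), which overlapped Igfbp3 (31.0 ± 4.29). After a gap came Igfbp6 (12.8 ± 0.777), Insr (12.7 ± 1.68), Igfbp7 (12.4 ± 2.70) and Igfbp5 (7.93 ± 4.39), each overlapping the next, and Igf1 (0.281 ± 0.205) was last.

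Summed per kilobase, the 6 binding protein genes reached 76.5, 72.4 and 79.5 in the control-labelled libraries and 251, 299 and 188 in the 2KO-labelled ones. Nearly equal sums in the first group were made up differently: the share of Igfbp2 was 15.1%, 25.0% and 39.6%, and that of Igfbp7 35.3%, 17.4% and 19.1%. In the libraries labelled 2KO, Igfbp2 made up 56.9%, 69.4% and 53.5% of the sum. Igfbp6 went from 0.735% ± 0.0870 to 5.47% ± 1.64 of it, while Igfbp4, which rose in level, held 12.3% ± 4.22 and 12.9% ± 2.01. The share of Igfbp5 was 29.7%, 13.8% and 17.6% against 5.18%, 1.66% and 3.12%. These shares depend on the exon lengths of the annotation and are given as a description.

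**Figure D3:**
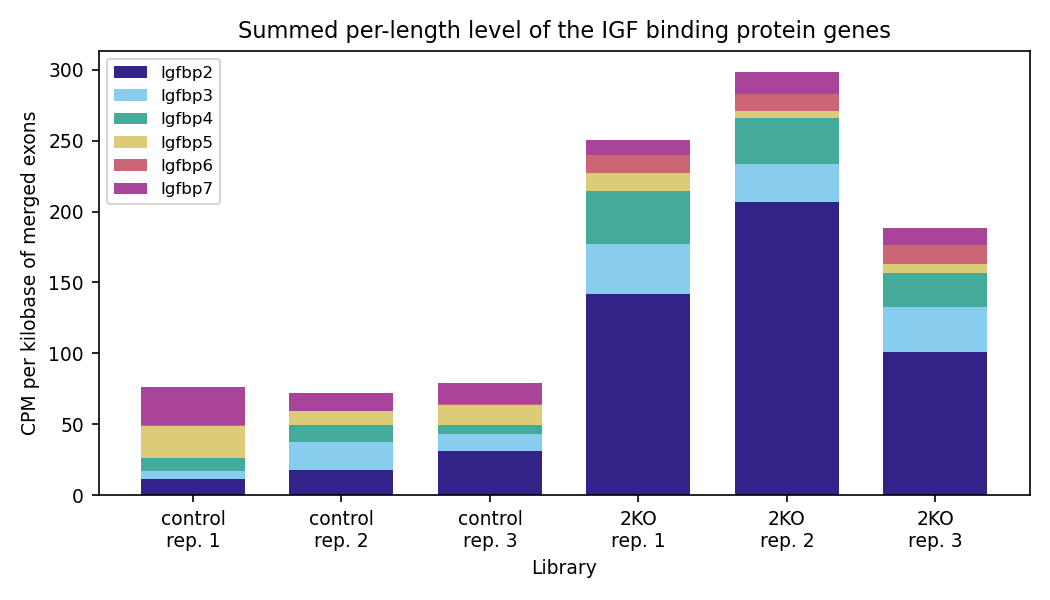
CPM per kilobase of merged exons (vertical axis, from 0), stacked over the 6 IGF binding protein genes, in each library. The control bars reach 72.4 to 79.5 and the 2KO bars 188 to 299, and Igfbp2 (darkest segment) makes up 53.5% to 69.4% of each 2KO bar.

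Of 58 further genes of IGF signaling reported here, in 4 lists, 51 had enough counts to be tested, of which 4 rose in the 2KO-labelled libraries, none fell and 47 did not pass. This is 7.84% of those tested, near the 9.02% of all tested genes that passed in either direction, and their median log2 fold change was 0.06. At an unadjusted edgeR p under 0.05, 6 had a positive and 3 a negative fold change. The positive ones were the 4 that rose, Igf2r and Ptpn1, which encodes a phosphatase that acts on the insulin receptor (73.6 ± 5.84 and 111 ± 15.9 CPM, edgeR adjusted p = 0.0787). The 3 negative ones were Htra1 (38.9 ± 1.92 and 27.8 ± 4.51 CPM, edgeR adjusted p = 0.219), Shc1 (90.8 ± 4.22 and 60.0 ± 5.99 CPM, edgeR adjusted p = 0.0636) and Enpp1 (22.2 ± 10.9 and 9.42 ± 3.79 CPM, edgeR adjusted p = 0.108), and DESeq2 called Ptpn1 higher and Shc1 and Enpp1 lower. Ptpn1 and these 3 are named after their values were seen.

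Of the 8 other ligand, receptor and carrier genes 3 were tested and 1 rose, where 6.61% of all tested genes were higher. A list of 3 genes does not show a difference from that share. Igf2, the gene of the fetal ligand IGF-II, imprinted so that the paternal copy is active, measured 289, 733 and 933 CPM in the control-labelled libraries and 1400, 2710 and 2080 CPM in the 2KO-labelled ones (log2 change 1.66 with SE 0.40, edgeR adjusted p = 0.0312). Per kilobase of exon it stood at 114 ± 57.6 and 360 ± 115, above each of the 9 IGF axis genes in the mean of both groups, and Igf1 was at 0.312 and 0.281 on this scale. The groups did not overlap, yet the call was lost without control replicate 2 (adjusted p = 0.0660), 2KO replicate 2 (0.0976) or 2KO replicate 3 (0.0797), on omitting both replicate-3 libraries (0.107) and with Xist as a covariate (0.0656). Igf2 shares 98 exon bases with Igf2os on the other strand, which rose too (5.12 ± 3.08 to 33.3 ± 7.11 CPM, edgeR adjusted p = 0.00964) and is named here for that overlap. Of its 5723 exon bases, Igf2 also shares 3596 with Gm49394 on the same strand, which has no row in the counts. How reads of shared bases were assigned is not stated. Igf2r, whose product takes IGF-II to lysosomes, was at 171 ± 32.6 and 249 ± 17.5 CPM (log2 change 0.54 with SE 0.18, edgeR adjusted p = 0.105), and it passed on omitting both replicate-1 libraries (0.0370). The insulin genes Ins1 and Ins2 had 0 counts in all libraries. Igfbp1, the neighbour of Igfbp3 at 3.54 kb, had 18 counts over all 6 libraries.

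Among 14 adaptors and regulators of the receptors, all tested, 3 rose and none fell (21.4%, against 6.61% of all tested genes that were higher). Irs4, a receptor substrate, measured 0.319, 0.549 and 0.163 CPM in the control-labelled libraries and 4.98, 7.54 and 4.79 CPM in the 2KO-labelled ones (log2 change 4.05 with SE 0.63, edgeR adjusted p = 0.00430). Grb10, which encodes an adaptor that restrains the receptors and is imprinted, was at 26.3, 92.7 and 31.3 CPM against 307, 198 and 193 CPM (log2 change 2.21 with SE 0.45, edgeR adjusted p = 0.0153). Grb14, of the same adaptor family, was at 5.04, 3.49 and 1.70 CPM against 10.7, 10.6 and 13.5 CPM (log2 change 1.77 with SE 0.43, edgeR adjusted p = 0.0323). The call of Irs4 held in all 16 alternatives (adjusted p at most 0.0480). That of Grb10 was lost without control replicate 3 (0.0508), on omitting both replicate-1 (0.0663) or both replicate-3 libraries (0.128) and with Xist as a covariate (0.0563), and its log2 fold change was 3.01 without control replicate 2. Grb14 missed the threshold whichever library was left out except control replicate 1, with an adjusted p of 0.0810 (control replicate 2), 0.0779 (control replicate 3), 0.0552 (2KO replicate 1), 0.0723 (2KO replicate 2) or 0.0958 (2KO replicate 3), and on omitting both replicate-3 libraries (0.185). Irs1, the adaptor gene with the most reads, was at 416 ± 38.2 and 453 ± 117 CPM (95% interval of the log2 fold change -0.33 to 0.58, adjusted p = 0.801).

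Of the 26 genes reported here of the PI3K, AKT, mTOR and FOXO steps, all tested with edgeR, 0 passed and 0 had an unadjusted p under 0.05, and DESeq2 called 0 of them. Among them was Gsk3b, with the most reads, at 592 ± 47.2 and 513 ± 18.3 CPM (adjusted p = 0.498). Of 10 proteases that cut binding proteins and their inhibitors 8 were tested and none passed. Stc1, which encodes an inhibitor of pappalysins, was at 31.9 ± 12.8 and 39.4 ± 18.2 CPM (adjusted p = 0.736), and Pappa, the gene of pappalysin-1, at 27.3 ± 11.9 and 29.9 ± 9.58 (adjusted p = 0.891).

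**Figure D4:**
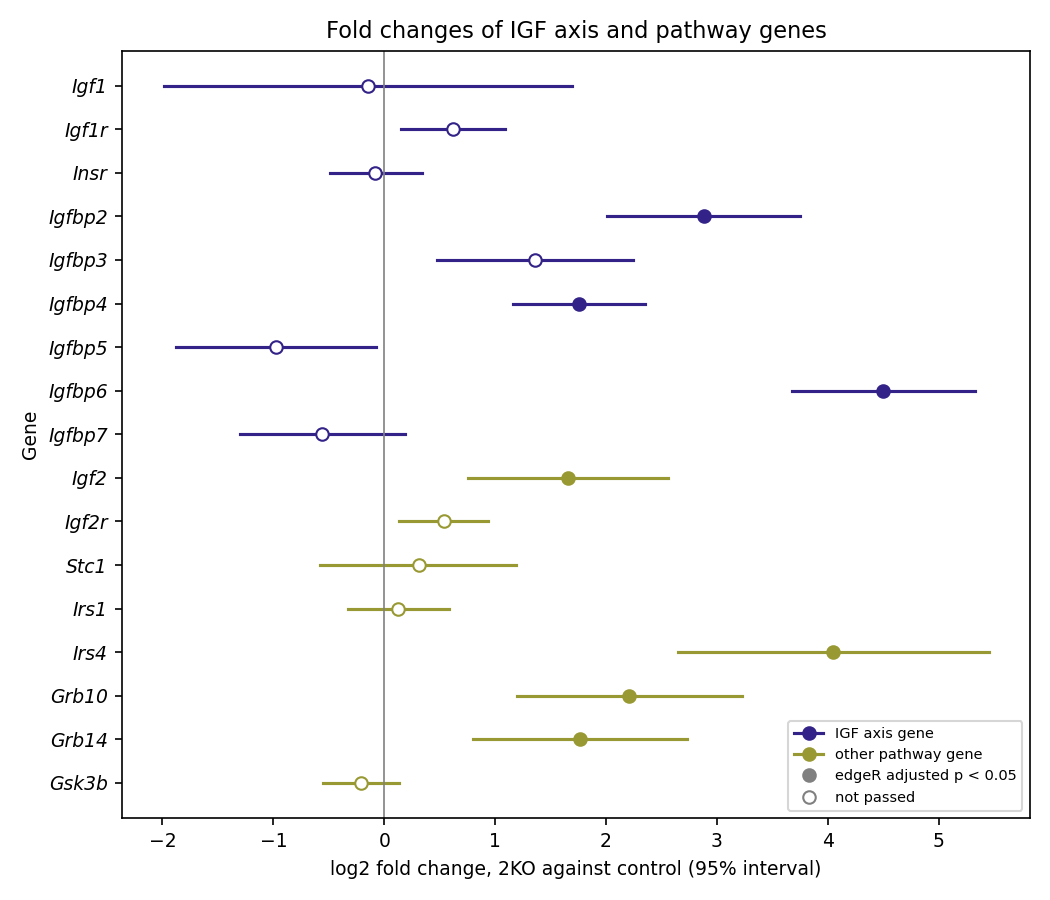
Log2 fold change (2KO against control, horizontal axis) with its 95% interval for the 9 IGF axis genes (blue) and 8 other pathway genes (olive), filled where the edgeR adjusted p was under 0.05. Filled points all lie to the right of 0, from 1.66 for Igf2 to 4.50 for Igfbp6.

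By Pearson's r of log2 CPM over the 6 libraries, given as a description, the genes most like Igfbp6 were Sim2 (r = 0.9991), Pax9 (0.9984) and Sccpdh (0.9981). Sim2 and Pax9 encode transcription factors of development and were at 43.9 ± 4.50 and 12.6 ± 2.38 CPM in the 2KO-labelled libraries, against 0.0109 ± 0.0189 each in the control-labelled ones. Closest to Igfbp2 were Jph4 (0.9966), Vash1 (0.9958) and Tpm2 (0.9933), a tropomyosin gene that rose from 35.7 ± 11.7 to 217 ± 47.2 CPM. Closest to Igfbp4 were Rbpms2 (0.9969), Slc14a1 (0.9969) and Six4 (0.9966), a homeobox gene that rose from 1.00 ± 0.628 to 19.7 ± 9.45 CPM. The points share libraries and the difference between the groups, and between 150 and 330 of 12009 genes exceeded an r of 0.95 with each of the 3.

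Markers of cells outside the epithelium were read beside these genes, since binding proteins are also made by fibroblasts and vessels. Of 18 tested dermal fibroblast markers 6 were higher and none lower in the 2KO-labelled libraries, with a summed level of 2480 to 3200 CPM in the control-labelled ones and 3530 to 4510 in the 2KO-labelled ones. Over all tested genes 6.61% were higher and 2.42% lower. The 6 were Col5a1, Col6a1, Col6a2, Pdgfra, Thy1 and Fbn1. Of the 18, 13 had a positive and 5 a negative fold change, and at an unadjusted edgeR p under 0.05 these were 8 and 1. The list's most abundant genes, Fn1 (fibronectin, 974 ± 256 and 1570 ± 402 CPM, edgeR adjusted p = 0.132) and Sparc (438 ± 101 and 772 ± 195 CPM, edgeR adjusted p = 0.0652), lay apart between the groups without passing, both higher in the 2KO-labelled libraries. Postn (periostin, 755 ± 104 and 454 ± 111 CPM, edgeR adjusted p = 0.0598) lay apart the other way. Pdgfra, a surface receptor of fibroblasts, went from 0.896 ± 0.315 to 10.2 ± 5.23 CPM. The fibroblast proteoglycan genes Dcn and Lum did not pass (382 ± 97.5 and 474 ± 66.9 CPM, and 3.86 ± 3.27 and 2.14 ± 2.50), nor did Col1a1 (52.2 ± 29.8 and 83.0 ± 3.15), Col1a2 (58.2 ± 22.7 and 53.3 ± 16.5), Vim (29.6 ± 6.51 and 45.2 ± 13.2) or Dpt (3.56 ± 2.54 and 2.08 ± 1.58), and Twist2 had 18 counts in all. Dermal papilla markers summed to 17.6 to 28.8 and 39.8 to 76.1 CPM, with 1 of 7 higher (Prom1, 5.68 ± 2.79 and 37.2 ± 15.2 CPM). The difference of these sums lay largely in Prom1. The other 6 did not pass, and of the 7 fold changes 5 were positive and 2 negative. Endothelial markers summed to 6.42 to 15.1 and 11.5 to 30.0 CPM, with 1 of 7 higher (Flt1, 0.895 ± 0.769 and 8.11 ± 2.44 CPM). Here the difference of the sums lay largely in Flt1, and Pecam1 was at 2.74 ± 1.87 and 2.68 ± 1.01. Of the 7 fold changes 3 were positive and 4 negative. Pericyte and smooth muscle markers summed to 230 to 295 and 373 to 414 CPM, with 1 of 8 higher (Acta2). Most of these sums was Cspg4 and Notch3, which did not pass (edgeR adjusted p = 0.243 and 0.286). Of the 8 fold changes 4 were positive and 4 negative. The part of these cells in the rise of Igfbp2, Igfbp4 and Igfbp6 was not tested.

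Epithelial markers prevailed in all libraries. Basal keratinocyte markers, led by Krt5 and Dst, summed to 22300 to 32500 and 28600 to 33500 CPM, and none of 9 passed. Of 15 hair follicle markers 9 were lower, where 2.42% of all tested genes were lower. The 9 were Shh, Lgr5, Msx2, Krt25, Krt28, Krt71, Krt35, Lrig1 and Vdr. Krt25 went from 18.4 ± 7.59 to 0 CPM and Lgr5 from 119 ± 70.8 to 12.9 ± 10.7. Fold changes were negative for 14 of the 15 and positive for 1, Krt17 (428 ± 85.8 and 790 ± 217 CPM, edgeR adjusted p = 0.0514). The sum of the list, led by Krt17 and Cux1, was 2320 to 3480 and 1860 to 2500 CPM. Ly6a, the gene of Sca1, was at 1.92 to 7.28 CPM. Of 7 suprabasal markers 1 was lower (Krt77), with sums of 3100 to 11500 and 1220 to 3790 CPM. These sums were led by Krt1 and Krt10, which did not pass (edgeR adjusted p = 0.101 and 0.0598). Fold changes were negative for 4 of the 7 and positive for 3, and at an unadjusted edgeR p under 0.05 these were 3 and 0. Of 6 Merkel cell markers tested 2 were higher, where 6.61% of all tested genes were higher. The 2 were Krt18 (1.67 ± 1.27 and 23.9 ± 18.9 CPM) and Piezo2 (9.87 ± 1.46 and 42.3 ± 2.51). The other 4 did not pass: Krt20 was at 2.06 ± 0.769 and 0.349 ± 0.252 CPM with groups apart (edgeR adjusted p = 0.119), Krt8 at 1.55 ± 0.350 and 0.786 ± 0.792, Isl1 at 2.40 ± 0.581 and 1.69 ± 0.478, and Sox2 at 0.905 ± 0.393 and 2.04 ± 1.28. Atoh1, not tested for low counts, was at 1.53 ± 1.72 and 0.0654 ± 0.113 CPM. None passed among 9 immune, 7 melanocyte, 6 Schwann cell, 2 skeletal muscle and 5 adipocyte markers and 1 red blood cell marker tested.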

How the data were processed

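RNA of sorted skin cells was sequenced in 6 libraries, 3 per group. The RNA was amplified from a small input (10 ng, per the labels' protocols), with no molecular identifiers, so duplicate reads are not independent molecules. The deposited files hold counts of reads per gene symbol, not normalized. The submitters' processing notes list the build mm10 with HTSeq 0.6.1, TopHat2 2.0.13, DESeq2 1.6.3 and Cufflinks 2.2.1; no role, annotation or strand setting is stated. From the deposited counts, filterByExpr of edgeR 4.0.16 (R 4.3.3) kept 14972 of 24453 genes, libraries were scaled by TMM, and glmQLFit and glmQLFTest compared the groups without covariates. SE is the log2 fold change over the square root of F, and 95% intervals use the t quantile of the fit's degrees of freedom. The code was tested on simulated data with 200 genes changed, where it recovered 10 of 100 genes changed 2-fold and 66 of 100 changed 4-fold. In the data 1351 genes were called. The adjustment depends on how many genes change, so these rates need not hold for the data. A gene that did not pass may still have changed. Alternatives were RLE scaling, DESeq2 1.42.0, limma-voom (limma 3.58.1), other count filters, omission of the ribosomal RNA row Rn45s, an Xist covariate, a replicate block and left-out libraries. Coordinates and exon lengths are from GENCODE release vM21 and promoters from RefSeq (GRCm38.p6), in which 8 of 9 genes matched.

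The genes, pathway lists and marker lists were chosen with earlier results of these data known. Named are the 9 genes, Ring1 and Rnf2, pathway genes past the threshold and the one with the most reads in each list that did not pass, nearest protein-coding neighbours of called genes, the 3 genes of at least 2 CPM most correlated with each called gene, and the most abundant markers by list. Other genes named, such as Pappa, Ins1, Ins2 and further markers, were chosen after their values were seen. Of the pathway lists, 1 gene is not reported here, and the counts of pathway genes leave it out.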

Additional observations from a re-analysis of the deposited data

How the results depend on the processing

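Igfbp2, Igfbp4 and Igfbp6 were called higher in all 16 alternatives, and Irs4 too. Counts of calls moved as follows. Lower IGF axis genes, 0 in the fit of all libraries, numbered 0 to 1 with single libraries left out and 1 (Igfbp5) on omitting both replicate-1 libraries. Higher pathway genes, 4 in the fit of all libraries, numbered 2 to 4 with single libraries left out, 2 with the Xist covariate and 1 on omitting both replicate-3 libraries, and DESeq2 called 2 pathway genes lower. Over all genes, 989 higher and 362 lower genes became 615 to 854 and 184 to 347 with single libraries left out and 309 and 72 on omitting both replicate-3 libraries, while 237 were lower with the Xist covariate and 733 with DESeq2. The sign turned with single libraries left out for Igf1 (-0.59 to 0.69), Insr (-0.17 to 0.09), Stc1 (-0.11 to 0.56) and Irs1 (-0.09 to 0.25), on omitting both replicate-1 libraries for Igf1 (0.46) and Insr (0.18), with the Xist covariate for Igf1 (0.23) and Insr (0.05), for Irs1 also on omitting both replicate-3 libraries (-0.16), for Ring1 with the Xist covariate (0.03) and for Rnf2 on omitting both replicate-3 libraries (-0.05), none of which passed the threshold in either fit. The cause of these moves was not tested.

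Replicate numbers could not be shown to pair the libraries. Deviations from the group means correlated at 0.29, 0.089 and -0.076 for numbers 1, 2 and 3. The libraries numbered 1 correlated best with each other, and those numbered 2 and 3 did not. So few correlations cannot exclude a pairing. With the replicate number as a block, 1142 genes were higher and 540 lower, 4 IGF axis genes were higher (Igfbp3 added, log2 fold change 1.54, adjusted p = 0.0261) and 1 lower (Igfbp5, -1.03, adjusted p = 0.0111), and 4 pathway genes were higher and 1 lower. Counts were lowest for Igf1, at 14 to 163 a library, and for Igfbp6 in the control-labelled libraries, at 16 to 22, which limits their precision there.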
